A study of Mus musculus with 96 samples.

Results

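Breakdown of the branched-chain amino acids leucine, isoleucine and valine was followed through the RNA of 10 genes, out of 29072 gene symbols in the deposited table. The genes were Bcat2, Bckdha, Bckdhb, Dbt, Dld, Bckdk, Ppm1k, Ivd, Mccc1 and Mccc2. They were chosen by name as genes of this route, with earlier results of these data known, and each was represented by its transcript row with the highest mean over the 96 libraries. RNA was sequenced from interscapular brown adipose tissue (iBAT), the fat depot that makes heat, and from inguinal white adipose tissue (iWAT), a depot under the skin that can take on brown features in the cold. The animals were male C57BL/6J mice, either wild-type or Ucp1-KO, which lack a functional gene for the uncoupling protein of brown fat; which exons were removed is not given in the labels. Mice of each genotype spent 4 weeks at 20 °C on a control diet, at 30 °C (thermoneutral for mice) on that diet, or at 30 °C on a high fat diet. Fat supplied 13% of the energy in the control diet and 48% in the high fat diet. Each of the 12 groups held 8 libraries, taken as 1 per animal and tissue, and on that reading the tests measure the spread between animals. Age and batch are not in the labels, and the libraries of the depots cannot be matched animal by animal.

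Breakdown starts in the mitochondrion. Bcat2, the mitochondrial transaminase, moves the amino group to alpha-ketoglutarate and leaves a branched-chain keto acid. The branched-chain keto acid dehydrogenase complex then removes carbon dioxide and commits the carbon skeleton to oxidation. Bckdha and Bckdhb encode the alpha and beta subunits of its E1 component and Dbt its E2 core. Dld encodes E3, which also serves the pyruvate and alpha-ketoglutarate dehydrogenase complexes and the glycine cleavage system. The kinase Bckdk phosphorylates the E1 alpha subunit and thereby shuts the complex off, and the phosphatase Ppm1k removes that phosphate. In the leucine arm, Ivd oxidises isovaleryl-CoA, and Mccc1 and Mccc2 encode the alpha and beta subunits of methylcrotonyl-CoA carboxylase, which acts next. Brown fat is known to burn branched-chain amino acids in the cold, and white adipocytes to use them for fat synthesis.

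RefSeq start sites on GRCm38.p6 were found for 9 of the 10 genes, in 11 windows from 250 bases before to 50 bases after the start; Dbt had no entry. The letters CCAAT, searched on both strands, stood in 8 of the 11 windows (7 of the 9 genes) and in 37.4% of all 32851 windows of that length. The half-site AAGGTCA stood in 0 of the 11 and in 4.72% of all windows. The GC box GGGCGG stood in 3 of the 11 (35.7% of all windows), the E-box CACGTG in 1 (7.15%) and CCACCC in 4 (31.5%). The 250 bases before the start are shown for the 3 of the 10 genes in the leucine arm, which rose together in wild-type iBAT at 20 °C. They are also shown for Bckdha, which rose too and held no CCAAT. Bcat2, which rose narrowly there, held none in its windows either. Bckdhb, which did not pass there, held 2 matches, 76 and 40 bases before its start, in the window at chr9:83924887-83925136 (+ strand). A link between these letters and the rise was not tested. Capitals mark CCAAT or, on the other strand, ATTGG, 5′ to 3′ on the strand of the gene. The windows are Ivd at chr2:118861744-118861993 (+ strand), Mccc1 at chr3:36000679-36000928 (- strand), Mccc2 at chr13:100015640-100015889 (- strand) and Bckdha at chr7:25658762-25659011 (- strand).
Ivd: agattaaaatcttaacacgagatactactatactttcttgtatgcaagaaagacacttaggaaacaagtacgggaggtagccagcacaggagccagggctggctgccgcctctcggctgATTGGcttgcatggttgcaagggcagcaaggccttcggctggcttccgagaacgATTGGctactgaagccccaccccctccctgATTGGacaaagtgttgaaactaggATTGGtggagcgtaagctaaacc
Mccc1: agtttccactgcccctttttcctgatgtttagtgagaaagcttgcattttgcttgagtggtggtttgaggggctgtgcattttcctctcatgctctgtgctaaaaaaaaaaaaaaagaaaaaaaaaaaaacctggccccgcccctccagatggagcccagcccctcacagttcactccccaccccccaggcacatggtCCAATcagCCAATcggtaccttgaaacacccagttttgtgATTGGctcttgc
Mccc2: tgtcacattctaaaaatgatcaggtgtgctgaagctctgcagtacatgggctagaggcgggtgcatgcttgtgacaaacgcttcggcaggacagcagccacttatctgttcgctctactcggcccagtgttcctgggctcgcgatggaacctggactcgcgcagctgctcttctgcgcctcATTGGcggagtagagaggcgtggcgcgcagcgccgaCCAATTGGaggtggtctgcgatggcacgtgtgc
Bckdha: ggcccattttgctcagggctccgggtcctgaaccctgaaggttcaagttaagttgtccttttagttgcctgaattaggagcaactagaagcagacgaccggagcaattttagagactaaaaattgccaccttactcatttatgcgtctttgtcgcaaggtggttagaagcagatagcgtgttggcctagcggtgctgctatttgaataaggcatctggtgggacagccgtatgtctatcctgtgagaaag
Ivd held 4 matches between 131 and 23 bases before its start, Mccc1 held 3 between 52 and 12 bases, and Mccc2 held 3 between 69 and 30 bases, of which a pair overlapped on opposite strands. A match describes the letters and not binding.

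Values were RPKM, which scale reads by transcript length and by library depth. Depth recovered from the spacing of low values was 8.91 to 19.2 M reads per library, and 1 read on a transcript of 1 kb stood for 0.052 to 0.112 RPKM. Ucp1 lay at 2428 to 9281 RPKM in the wild-type iBAT libraries and at 546 to 1145 in the Ucp1-KO libraries, without overlap. In wild-type iBAT it was lower at 20 °C (2428 to 4550) than at 30 °C (7328 to 9281), a log2 difference of -1.14, whereas cold is known to raise Ucp1 in brown fat. In Ucp1-KO iBAT (0.47) and in iWAT of wild-type (2.37) and Ucp1-KO mice (1.88) it was higher at 20 °C. The temperature labels were used as given, and every result on wild-type iBAT at 20 °C or 30 °C rests on them. Summed over 8 brown adipocyte markers, the group medians were 2255 to 11197 RPKM in iBAT and 71.4 to 1891 RPKM in iWAT. Ucp1 is in this list, and in wild-type iBAT at 30 °C its median was 8200 RPKM beside a median sum of 11197. Differences in the sum between genotypes thus hold the knocked-out gene itself. By skeletal muscle markers, or by a low correlation with their own group, 17 libraries stood apart (10 of iBAT, 7 of iWAT), and the counts below were repeated without them. Macrophage markers (10 genes, summed) ran from 417 to 2396 RPKM in Ucp1-KO iBAT at 30 °C and from 189 to 317 in wild-type iBAT. B cell markers (5 genes) ran from 46.4 to 166 RPKM in Ucp1-KO iWAT at 20 °C and from 187 to 321 in wild-type iWAT. The median log2 difference of all genes ran from -0.43 to 0.27 over the 26 comparisons, and from -0.09 to 0.03 after median-ratio scaling, so that a gene near 0 can change its sign with the scaling. In such bulk samples fewer cells of a type and less RNA per cell cannot be told apart.

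Per length of transcript, Dld and Bckdha were the most abundant of the 10 in iBAT, with medians of 293 and 176 RPKM over all iBAT libraries, and Ppm1k the least with 4.14. In iWAT, on the transcript rows used, Bcat2 had a median of 109 RPKM, Dld 99.2, Bckdha 92.1 and Ivd 90.4, and their ranges overlapped. That order depends on the row. Over the 96 libraries Bcat2 averaged 85.0 RPKM on the row used and 65.9 on its RefSeq row, against 216 and 208 for Dld. Ppm1k was lowest there too, at 5.84 RPKM. Between these stood Bckdhb, Dbt, Mccc1, Bckdk and Mccc2, with iBAT medians from 85.0 down to 26.9 RPKM. The kinase Bckdk was read at several times the level of the phosphatase in every group, as the ratios further on show.

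**Figure D1:**
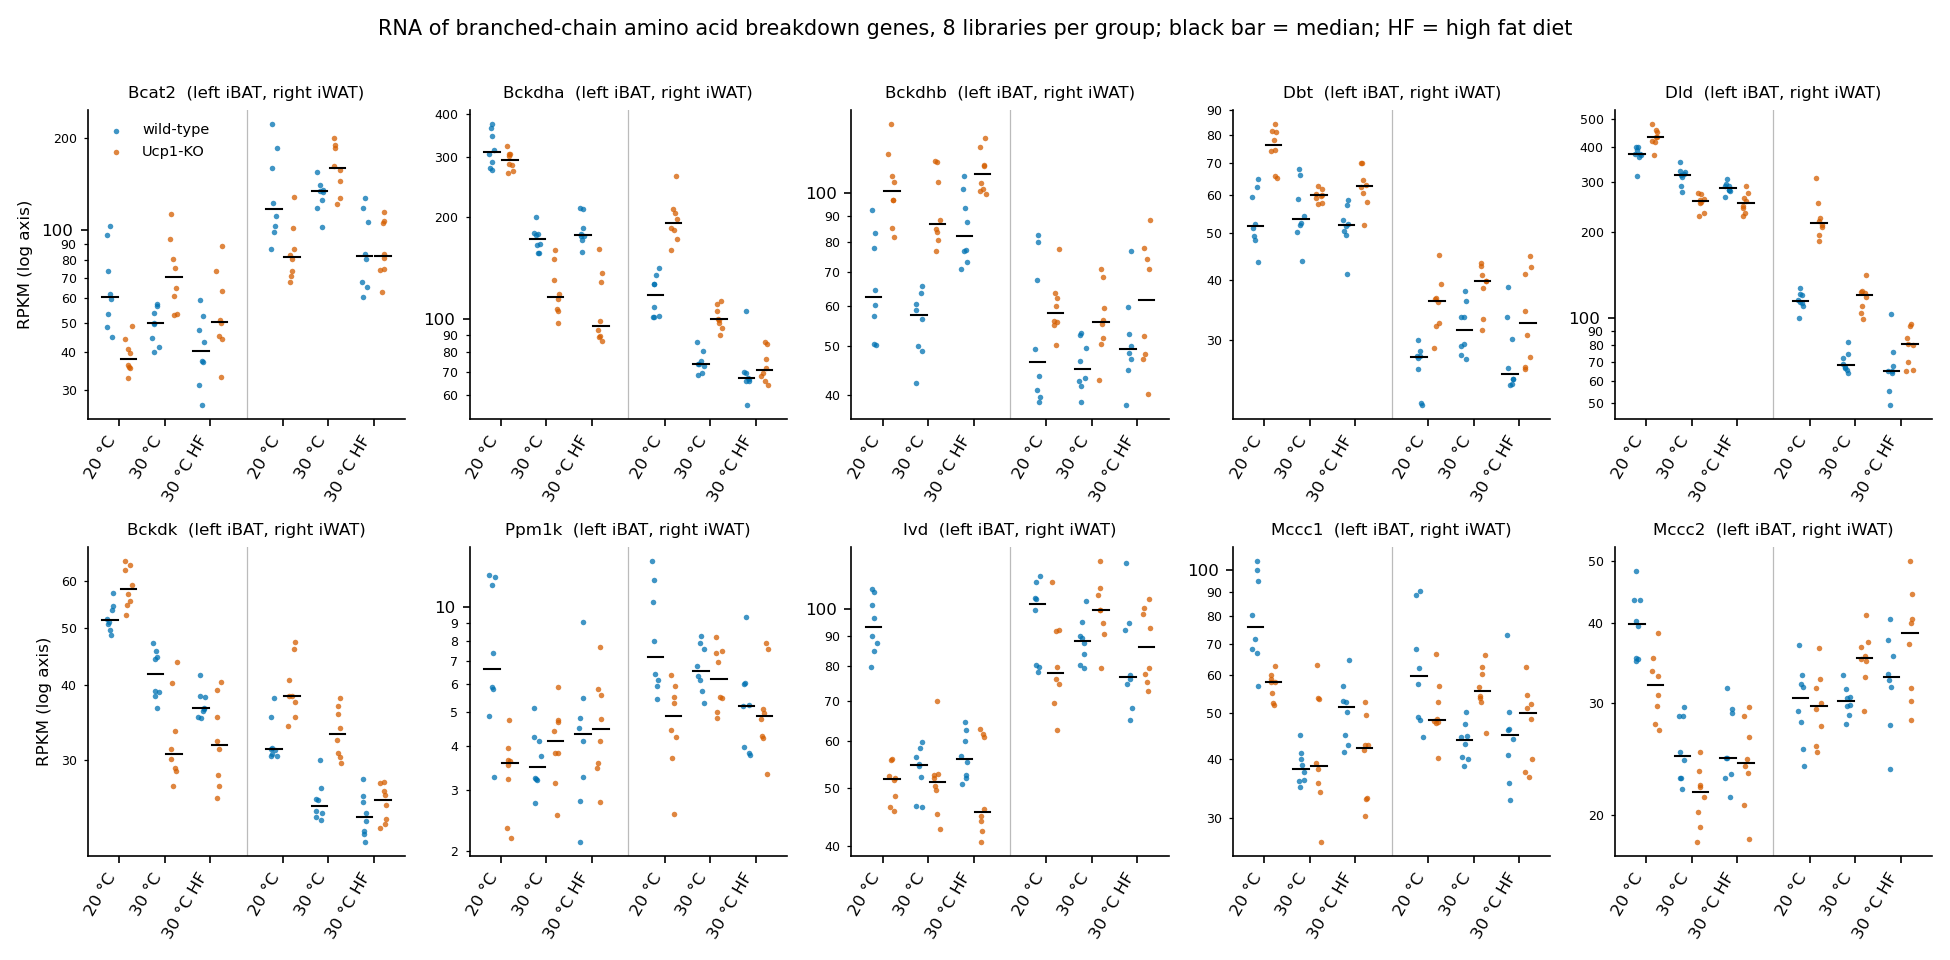
RPKM (log axis) of the 10 genes in each library, by condition, with iBAT left and iWAT right of the grey line in each panel; blue points are wild-type and orange points Ucp1-KO libraries, 8 per group, and the black bar is the group median. Bckdha in iBAT is highest at 20 °C in both genotypes (273.8 to 373 RPKM in wild-type), and Dld in iBAT stands above iWAT within each genotype and condition.

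In wild-type iBAT, 8 of the 10 genes rose at 20 °C compared with 30 °C on control diet and none fell. Across all 14807 genes tested, 44.6% were called in this comparison, 11.6% higher and 33% lower. The median difference of the 10 genes was 0.52 on the log2(RPKM + 1) scale, and that of all genes -0.12. Mccc1, Bckdha, Ppm1k and Ivd had the largest differences, and Bckdhb and Dbt did not pass. Called without the 17 libraries, 8 rose and none fell.

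Bcat2, at the entry step, lay at 44.7 to 103 RPKM at 20 °C (median 60.7) and at 39.9 to 57.6 at 30 °C (median 49.7). The groups overlapped, and the log2 difference of 0.40 ± 0.17 (SE) passed narrowly (limma, adjusted p = 0.0494); without a filter on low values it did not pass (adjusted p = 0.0794). Bckdha, the regulated E1 alpha subunit, lay at 273.8 to 373 RPKM at 20 °C (median 309) and at 156 to 200.1 at 30 °C (median 171.5). Every 20 °C library stood above every 30 °C library, with a log2 difference of 0.88 ± 0.10 (adjusted p = 1.65e-09). Bckdhb (log2 difference 0.24 ± 0.11, adjusted p = 0.0823) and Dbt (-0.04 ± 0.08, adjusted p = 0.672) did not pass. Bckdhb passed after median-ratio scaling (0.41) or quantile normalization (0.32). Dld, the shared E3, lay at 315 to 399.6 RPKM at 20 °C and 277 to 353 at 30 °C and rose by 0.25 ± 0.06, but by 0.10, which did not pass, with quantile normalization.

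The regulators of the complex rose together in wild-type iBAT. Bckdk, the kinase, lay at 48.7 to 57.2 RPKM at 20 °C and 36.6 to 47.2 at 30 °C, with no overlap, and rose by 0.32 ± 0.08 (limma, adjusted p = 0.00125). Ppm1k, the phosphatase, lay at 3.27 to 12.4 RPKM (median 6.63) and 2.75 to 5.13 (median 3.49), with overlap, and rose by 0.83 ± 0.20. Of the 8 libraries at 20 °C, 6 stood above every library at 30 °C. Other transcript rows of Ppm1k followed this row unevenly (r = 0.28 to 0.98 over the 96 libraries), and the RefSeq row rose by 0.60 (adjusted p = 1.22e-06).

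All 3 genes of the leucine arm among the 10 separated completely by temperature in wild-type iBAT. Ivd lay at 79.8 to 108 RPKM at 20 °C (median 93.3) and at 46.5 to 59.8 at 30 °C (median 54.7), a rise of 0.80 ± 0.09 (limma, adjusted p = 2.87e-10). Mccc1 lay at 57.0 to 104 RPKM (median 75.9) and 34.8 to 44.9 (median 38.1), a rise of 1.02 ± 0.13. Mccc2 lay at 34.9 to 48.3 RPKM (median 39.9) and 21.9 to 29.5 (median 24.8), a rise of 0.63 ± 0.09. Ivd, Mccc1 and Mccc2 thus ran higher in each of the 8 libraries at 20 °C than in any at 30 °C. The rise of Mccc1 was 0.86 on its RefSeq row, which correlated with the row used here at r = 0.84. By median-ratio scaling, 49.7% of all calls were higher in this comparison against 26.1% here, and 9 of the 10 genes rose. Of the macrophage markers 9 of 10 were lower at 20 °C, with sums of 76.3 to 110 RPKM against 189 to 317. All 6 endothelial markers were lower (123 to 191 against 199 to 254 RPKM). Summed brown adipocyte markers were lower without overlap too, at 5496 to 8959 RPKM against 9823 to 12300. Of them Ucp1, Ppargc1a and Dio2 were lower and Elovl3, Cox8b and Cidea higher. Ucp1 weighs most in the sum: its medians were 4016 and 8200 RPKM, where those of the sum were 7883 and 11197. The part of these markers in the differences was not tested.

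In Ucp1-KO iBAT, 6 of the 10 genes rose at 20 °C and Bcat2 fell, where 73.4% of all genes were called (13.9% higher, 59.5% lower). Bckdha had the largest difference, followed by the fall of Bcat2 and the rises of Bckdk and Dld, and Bckdhb, Ppm1k and Ivd did not pass. The median difference of the 10 was 0.39, against -0.34 over all genes. Leaving out the 17 libraries gave the same counts. With median-ratio scaling 46.9% of all calls were higher against 18.9% here, and 8 of the 10 genes rose.

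Bcat2 was the only fall: 32.9 to 48.6 RPKM at 20 °C (median 38.0) and 53.0 to 113 at 30 °C (median 70.3). The groups did not overlap and the log2 difference was -0.87 ± 0.17 (limma, adjusted p = 1.4e-05). Bckdha rose from 97.2 to 159 RPKM (median 116) at 30 °C to 268 to 323 (median 293) at 20 °C, by 1.26 ± 0.10 (adjusted p = 9.12e-15). These ranges stood far apart, with the 20 °C mean at 2.38 times the 30 °C mean. Dbt (0.33 ± 0.08) and Dld (0.76 ± 0.06) rose without overlap, Dld from 228 to 273.6 RPKM to 373 to 479. Bckdhb, at 77.0 to 115 and 81.8 to 136 RPKM, did not pass (0.14 ± 0.11, adjusted p = 0.269), but passed with median-ratio scaling (0.56) and quantile normalization (0.27).

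Bckdk rose by 0.83 ± 0.08 in Ucp1-KO iBAT, from 27.1 to 43.8 RPKM to 52.5 to 64.8, without overlap. Ppm1k lay at 2.18 to 4.75 RPKM at 20 °C and 2.54 to 5.89 at 30 °C and did not pass (-0.22 ± 0.20, limma, adjusted p = 0.326). Ivd lay at 45.8 to 55.9 and 42.8 to 69.9 RPKM, with medians of 51.8 and 51.2 (-0.01 ± 0.09, adjusted p = 0.898); with median-ratio scaling it rose by 0.40. Mccc1 rose by 0.45 ± 0.13 with overlapping groups, and Mccc2 by 0.55 ± 0.09 with none. In these groups macrophage markers ran from 115 to 376 RPKM at 20 °C and from 417 to 2396 at 30 °C, with all 10 lower at 20 °C. Brown adipocyte markers summed to 4645 to 6204 RPKM against 2305 to 4697, with 5 of 8 higher and 2 lower at 20 °C. The part of either list in the differences was not tested.

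The effect of temperature differed between the genotypes for 8 of the 10 genes in iBAT, tested as an interaction that 52.4% of all genes passed (11.9% higher, 40.5% lower in Ucp1-KO). It was larger in Ucp1-KO for Bckdha, Dbt, Dld and Bckdk, by 0.37 to 0.51 on the log2 scale. It was smaller or opposite for Bcat2 (-1.27 ± 0.24), Ppm1k (-1.04 ± 0.28), Ivd (-0.81 ± 0.12) and Mccc1 (-0.56 ± 0.18). The Mccc1 value was -0.20 on the RefSeq row (limma, adjusted p = 0.079) and -0.31 with median-ratio scaling (adjusted p = 0.155), and passed in neither. The Bckdha value of 0.39 fell to 0.31 without the 17 libraries and did not pass (adjusted p = 0.0812), and 3 genes then had a larger effect in Ucp1-KO. For Bckdhb (-0.10 ± 0.16) and Mccc2 (-0.08 ± 0.13) the difference between genotypes did not pass. By median-ratio scaling 47.3% of all interaction calls were higher against 22.7% here.

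**Figure D2:**
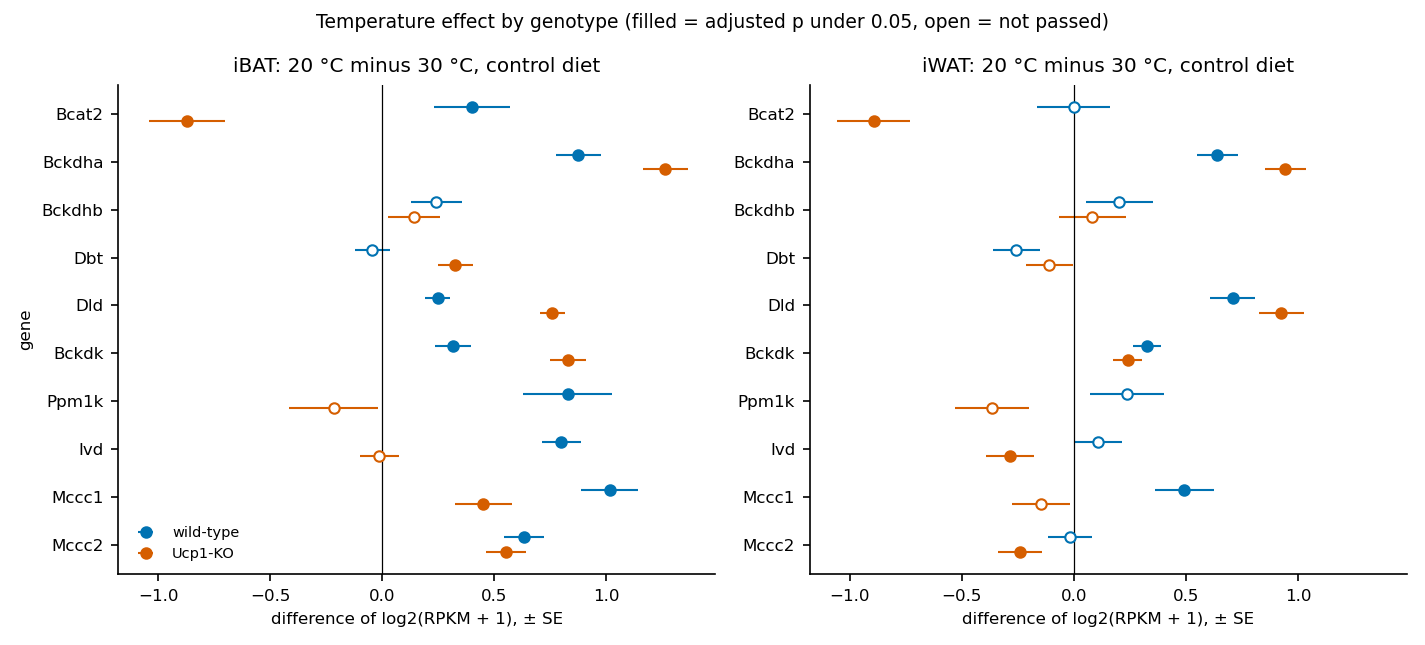
Difference of log2(RPKM + 1) between 20 °C and 30 °C on control diet (x axis, ± SE) for each gene in iBAT (left) and iWAT (right), in wild-type (blue) and Ucp1-KO (orange); filled points passed the test (adjusted p under 0.05, limma) and open points did not. In iBAT, Bcat2 stands at 0.40 in wild-type and -0.87 in Ucp1-KO, and Ivd at 0.80 and -0.01.

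At 20 °C, Ucp1-KO iBAT held less RNA than wild-type iBAT for the entry enzyme, the phosphatase and Ivd, Mccc1 and Mccc2 of the leucine arm. It held more for the beta subunit of E1, the E2 core and E3. Of the 10 genes, 3 were higher and 5 lower, where 37.8% of all genes were called (24.7% higher, 13.1% lower). The median difference was -0.21 for the 10 genes and 0.06 for all genes. The counts were the same without the 17 libraries. With median-ratio scaling 52.0% of all calls were higher against 65.4% here. Then 2 of the 10 were higher, since Dld (0.20 ± 0.06 here) no longer passed at 0.13.

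Ivd separated the genotypes at 20 °C: 45.8 to 55.9 RPKM in Ucp1-KO and 79.8 to 108 in wild-type, a difference of -0.87 ± 0.09 (limma, adjusted p = 1.76e-11). Bcat2 was lower by -0.72 ± 0.17, with 7 of 8 Ucp1-KO libraries below every wild-type library. Ppm1k was lower by -0.93 ± 0.20, and by -0.75 on its RefSeq row. Mccc1 (-0.46 ± 0.13) and Mccc2 (-0.31 ± 0.09) were lower with overlapping groups. Bckdhb was higher by 0.64 ± 0.11, with 81.8 to 136 RPKM in Ucp1-KO and 50.3 to 92.5 in wild-type. Dbt was higher by 0.48 ± 0.08, with 65.1 to 84.2 RPKM against 43.6 to 64.8 and no overlap. For Bckdha (-0.11 ± 0.10) and Bckdk (0.17 ± 0.08) the difference did not pass (adjusted p = 0.419 and 0.0991). Macrophage markers ran from 115 to 376 RPKM in these Ucp1-KO libraries and from 76.3 to 110 in wild-type (8 of 10 higher, 1 lower), and their part was not tested.

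At 30 °C on control diet the genotype differences in iBAT took another form. Of the 10 genes, Bcat2 and Bckdhb were higher in Ucp1-KO, and Bckdha, Dld, Bckdk and Mccc2 were lower, where 64.7% of all genes were called (54.2% higher, 10.5% lower). The counts were the same without the 17 libraries. Bckdha lay at 97.2 to 159 RPKM in Ucp1-KO and 156 to 200.1 in wild-type, a difference of -0.50 ± 0.10 (limma, adjusted p = 3.64e-05). Dld (228 to 273.6 against 277 to 353 RPKM) was lower by -0.31 ± 0.06 without overlap, and Bckdk was lower by -0.35 ± 0.08. Bckdhb lay at 77.0 to 115 RPKM against 42.2 to 65.4, higher by 0.74 ± 0.11 without overlap. The subunits of E1 thus moved in opposite directions. Bcat2 was higher by 0.55 ± 0.17, which did not pass after median-ratio scaling (0.22) or quantile normalization (0.33). With median-ratio scaling 51.9% of all calls were higher against 83.7% here, Ivd was lower (-0.39) and Dbt was lower by -0.22 in place of 0.11. Of the 10 macrophage markers 9 were higher and 1 lower here, with sums that did not overlap as given above. Summed brown adipocyte markers ran from 2305 to 4697 RPKM in Ucp1-KO and 9823 to 12300 in wild-type, with 4 of 8 lower, Ucp1 among them, and 1 higher. Ucp1 alone had medians of 679 and 8200 RPKM in these groups, where the sums had 2941 and 11197. The part of either list was not tested.

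On high fat diet, Bcat2, Bckdhb and Dbt were higher in Ucp1-KO iBAT and Bckdha, Dld, Bckdk and Mccc1 lower, where 63.9% of all genes were called (52.8% higher, 11% lower). Bckdha lay at 86.0 to 160 RPKM in Ucp1-KO (median 95.7) and 157 to 212 in wild-type (median 177), a difference of -0.76 ± 0.10 (limma, adjusted p = 1.58e-08). In 7 of 8 Ucp1-KO libraries it was below every wild-type library. The 3 genes that were higher did not pass with quantile normalization: Bcat2 was at 0.14, Bckdhb at 0.15 and Dbt at 0.02, and with median-ratio scaling none passed and Dbt turned to -0.04. With either scaling 0 of the 10 were thus higher and 6 lower, with Ivd (-0.49 by median-ratio scaling, -0.45 by quantile normalization) and Mccc2 (-0.38 by each) added to the 4. With median-ratio scaling 51.2% of all calls were higher against 82.7% here. Without the 17 libraries, 2 were higher and 5 lower, with Bcat2 not passing at 0.30 and Ivd lower at -0.29. Macrophage markers ran from 560 to 1872 RPKM in Ucp1-KO and 144 to 440 in wild-type (9 of 10 higher, 1 lower). Brown adipocyte markers summed to 1650 to 2959 against 6977 to 11493 RPKM, with 3 of 8 lower, Ucp1 among them, and 2 higher. Ucp1 alone had medians of 815 and 6413 RPKM in these groups, where the sums had 2255 and 9251. The part of either list was not tested.

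**Figure D3:**
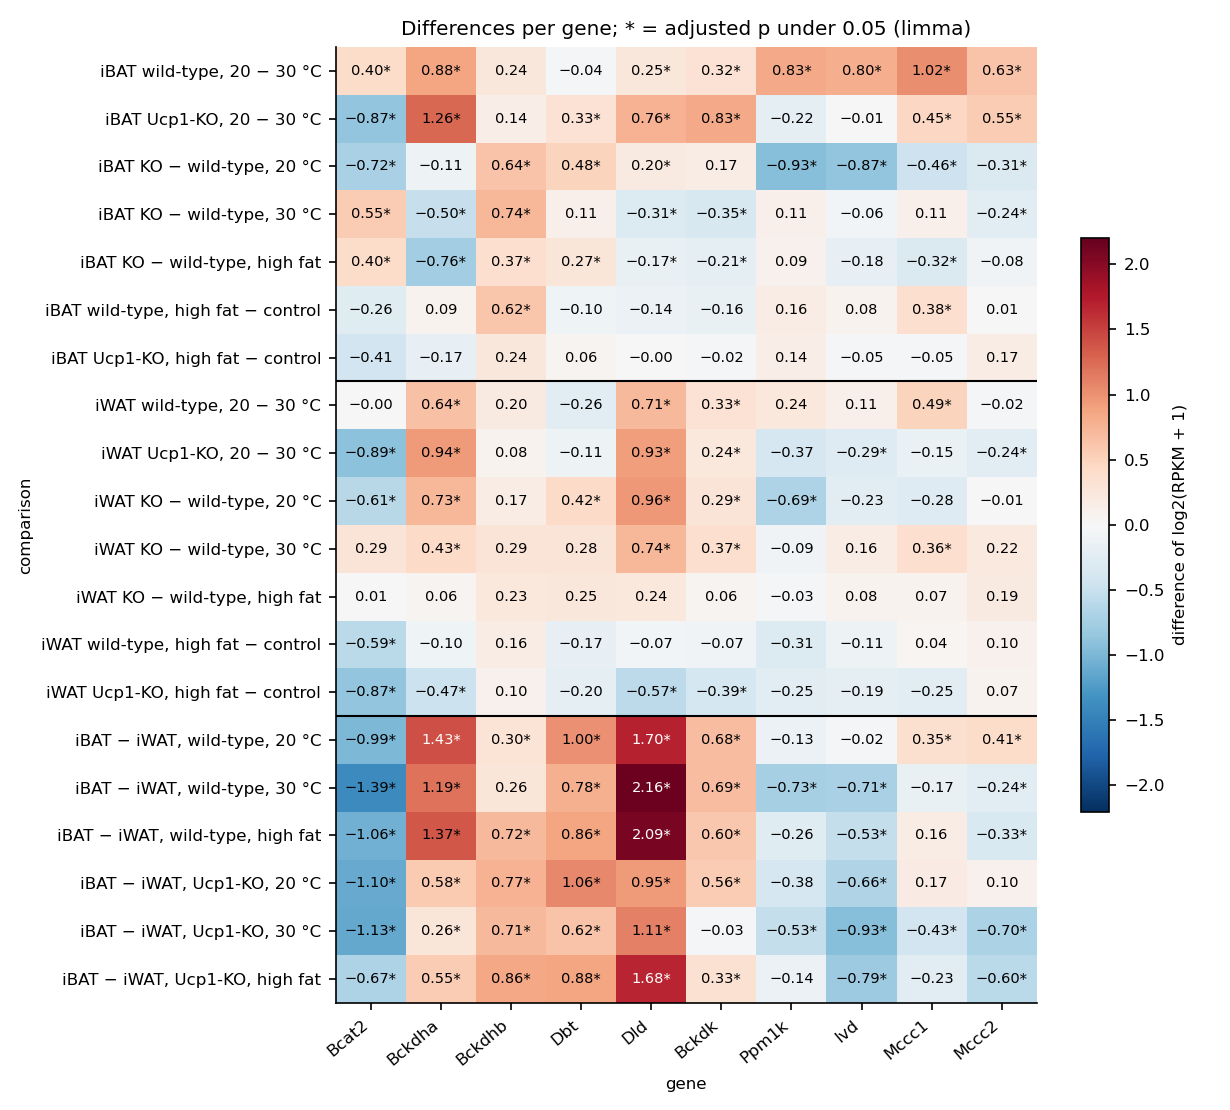
Difference of log2(RPKM + 1) for each of the 10 genes (columns) in each comparison (rows), with red for higher in the first-named group and blue for lower; an asterisk marks an adjusted p under 0.05 (limma), and black lines part iBAT, iWAT and the comparison of depots. Bckdha and Dld share a sign in most rows, and Bcat2 is lower in iBAT than iWAT in all 6 comparisons of the depots.

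The effect of high fat diet in iBAT was tested in each genotype. In wild-type iBAT at 30 °C, 2 rose and none fell on high fat diet, where 33% of all genes were called (18.5% higher, 14.5% lower). Bckdhb lay at 70.7 to 108 RPKM on high fat diet and 42.2 to 65.4 on control diet, without overlap, and rose by 0.62 ± 0.11 (limma, adjusted p = 4.59e-05). All 6 endothelial markers rose in the same libraries, with sums of 314 to 411 RPKM against 199 to 254, and 6 of 8 brown adipocyte markers fell; their part was not tested. Mccc1 rose by 0.38 ± 0.13, but by 0.09 on its RefSeq row, which did not pass (adjusted p = 0.356). Without the 17 libraries 1 rose and 1 fell: Mccc1 did not pass (0.34) and Dld fell (-0.16). With summed transcript rows 1 rose and 2 fell, Dld (-0.15) and Bckdk (-0.20). On the RefSeq rows 1 rose and Dld fell (-0.14). With only the groups compared 2 rose and Bckdk fell (-0.16). In Ucp1-KO iBAT none of the 10 passed in limma, where 16.4% of all genes were called (8.35% higher, 8.02% lower), and 2 had an unadjusted p under 0.05. With quantile normalization Bcat2 fell (-0.42) and Bckdhb rose (0.28). None of the 10 passed the test of a genotype difference in the diet effect (6.55% of all genes did, 2.78% higher and 3.78% lower), and 2 had an unadjusted p under 0.05.

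In wild-type iWAT, 4 of the 10 genes rose at 20 °C and none fell, where 19.6% of 15897 genes tested were called (7.25% higher, 12.4% lower). They were Bckdha, Dld, Bckdk and Mccc1. Bckdha lay at 101 to 142 RPKM at 20 °C (median 117.5) and 68.6 to 85.4 at 30 °C (median 73.7), a rise of 0.64 ± 0.09 without overlap (limma, adjusted p = 1.82e-06). Dld lay at 99.4 to 127 and 63.8 to 82.0 RPKM, a rise of 0.71 ± 0.10, also without overlap. Bckdk rose by 0.33 ± 0.06 and Mccc1 by 0.49 ± 0.13. Bcat2 had nearly equal means of 136 and 131 RPKM (log2 difference -0.00 ± 0.16), and the libraries at 20 °C spread from 86.8 to 222 RPKM. Ivd lay at 78.3 to 113 and 79.6 to 103 RPKM and did not pass (0.11 ± 0.11). The counts were the same without the 17 libraries. Brown adipocyte markers ran from 318 to 907 RPKM at 20 °C and 122 to 305 at 30 °C, and their part was not tested. With median-ratio scaling 71.0% of all calls were higher against 37.0% here.

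In Ucp1-KO iWAT, 3 genes rose at 20 °C (Bckdha, Dld and Bckdk) and 3 fell (Bcat2, Ivd and Mccc2), where 60.4% of all genes were called (9.02% higher, 51.4% lower). Dld went from 98.96 to 141 RPKM at 30 °C to 186 to 310.0 at 20 °C, a rise of 0.93 ± 0.10 (limma, adjusted p = 6.62e-10). Bckdha went from 89.9 to 113 RPKM to 160 to 264, a rise of 0.94 ± 0.09, and neither gene had overlapping groups. Bcat2 fell by 0.89 on the log2 scale (SE 0.16), from 122 to 200.2 RPKM to 67.6 to 128. Ivd (-0.29 ± 0.11) and Mccc2 (-0.24 ± 0.10) fell with overlap, and with median-ratio scaling their differences were 0.07 and 0.11. Only Bcat2 then fell, 4 genes rose, and 63.3% of all calls were higher against 14.9% here. Without the 17 libraries 3 rose and 3 fell, with Ppm1k (-0.44) in place of Mccc2. Brown adipocyte markers ran from 1481 to 3786 RPKM at 20 °C and from 380 to 663 at 30 °C, and their part was not tested.

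The temperature effect in iWAT differed between genotypes for Bcat2 (-0.89 ± 0.23, limma, adjusted p = 0.00969) and Mccc1 (-0.64 ± 0.18, adjusted p = 0.0189), where 13.3% of all genes passed (2.15% higher, 11.1% lower). Mccc1 stood at -0.30 on the RefSeq row (adjusted p = 0.184). It passed neither there, nor with median-ratio scaling (-0.39) or quantile normalization (-0.49), nor without the 17 libraries, which left 1 gene, Bcat2. With median-ratio scaling Bcat2 did not pass (-0.64), Bckdha passed at 0.56, and 83.8% of all calls were higher against 16.2% here.

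Ucp1-KO iWAT at 20 °C differed from wild-type iWAT in 6 of the 10 genes, 4 higher and 2 lower, where 64.8% of all genes were called (9.85% higher, 55% lower). The E1 alpha subunit, E2, E3 and the kinase were higher. Dld lay at 186 to 310.0 RPKM against 99.4 to 127, a difference of 0.96 ± 0.10 (limma, adjusted p = 2.78e-10). Bckdha lay at 160 to 264 RPKM against 101 to 142, higher by 0.73 ± 0.09. Both stood apart in all libraries. Dbt was higher by 0.42 ± 0.11 and Bckdk by 0.29 ± 0.06, with overlap. Bcat2 (-0.61 ± 0.16) and Ppm1k (-0.69 ± 0.17) were lower. With median-ratio scaling Bcat2 was at -0.23 and did not pass. Mccc2 turned from -0.01 to 0.36 and was higher, and Bckdhb was higher at 0.54. Then 6 of the 10 were higher and 1 lower, and 54.8% of all calls were higher against 15.2% here. Ppm1k was at -0.35 both on its RefSeq row, where it passed, and with quantile normalization, where it did not. The counts were the same without the 17 libraries. All 5 B cell and all 5 tested T cell markers were lower in these Ucp1-KO libraries, 9 of 10 macrophage markers were lower, and 6 of 7 tested brown adipocyte markers were higher; their part was not tested.

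At 30 °C on control diet, Bckdha, Dld, Bckdk and Mccc1 were higher in Ucp1-KO iWAT and none was lower, where 23.8% of all genes were called (7.54% higher, 16.2% lower). Dld lay at 98.96 to 141 RPKM against 63.8 to 82.0 (0.74 ± 0.10) and Bckdha at 89.9 to 113 against 68.6 to 85.4 (0.43 ± 0.09), neither with overlap. Mccc1 (0.36 ± 0.13, limma, adjusted p = 0.0403) was at 0.24 on its RefSeq row (adjusted p = 0.068). With only the 2 groups in the fit, 8 of the 10 were higher. Of 7 tested brown adipocyte markers 6 were higher in these Ucp1-KO libraries, with sums of 380 to 663 RPKM against 122 to 305, and 6 of 10 macrophage markers were lower; their part was not tested. The counts were unchanged without the 17 libraries, and with median-ratio scaling 69.4% of all calls were higher against 31.7% here. On high fat diet none of the 10 differed between the genotypes in iWAT by limma, where 0.283% of all genes were called (0.195% higher, 0.0881% lower), and 2 had an unadjusted p under 0.05. Bckdha then lay at 63.8 to 85.9 RPKM in Ucp1-KO and 56.0 to 105 in wild-type.

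High fat diet lowered Bcat2 in wild-type iWAT and none of the other genes passed, where 13.5% of all genes were called (9.69% higher, 3.84% lower). Bcat2 lay at 60.6 to 128 RPKM on high fat diet and 102.5 to 155 on control diet (-0.59 ± 0.16, limma, adjusted p = 0.0105). It did not pass without the 17 libraries (-0.57, adjusted p = 0.0639), which left none. Ppm1k fell as well on its RefSeq row (-0.31, limma, adjusted p = 0.0149) and with summed transcript rows (-0.38). In Ucp1-KO iWAT, Bcat2 (-0.87 ± 0.16), Bckdha (-0.47 ± 0.09), Dld (-0.57 ± 0.10) and Bckdk (-0.39 ± 0.06) fell and none rose, where 24.4% of all genes were called (16.1% higher, 8.31% lower). All 4 had groups without overlap: Bcat2 lay at 62.7 to 115 RPKM on high fat diet and 122 to 200.2 on control diet. Of 7 tested brown adipocyte markers 6 fell as well, with sums of 66.1 to 148 RPKM against 380 to 663 and Ucp1 lower by -2.68, and their part was not tested. The count was the same without the 17 libraries. With median-ratio scaling 43.8% of all calls were higher against 65.9% here. No gene passed the test of a genotype difference in the diet effect in iWAT by limma (1.33% of all genes did, 0.101% higher and 1.23% lower), 3 had an unadjusted p under 0.05, and Bckdk passed with only the groups compared (-0.31).

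Between the depots, the E1 alpha subunit, E2 and E3 were higher in iBAT in all 6 comparisons, and the entry enzyme was higher in iWAT. In wild-type mice 80.2% of 16310 genes were called at 20 °C, 81.3% at 30 °C and 78.6% on the high fat diet, and in Ucp1-KO mice 62.9%, 62.2% and 69.5%. Among the 10 genes, 7, 4 and 5 were higher in wild-type iBAT in these conditions and 1, 4 and 3 lower. In Ucp1-KO, 5, 4 and 5 were higher and 2, 5 and 3 lower. Without the 17 libraries, 3 in place of 2 were lower in Ucp1-KO at 20 °C, with the other counts the same. Over all genes, 15.8%, 19.5% and 16.7% were higher in wild-type iBAT and 64.4%, 61.8% and 61.9% lower, and in Ucp1-KO 20.2%, 26.3% and 24.5% were higher and 42.7%, 35.8% and 45% lower.

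Dld was higher in iBAT in all 6 comparisons, by 0.95 ± 0.08 (Ucp1-KO at 20 °C) to 2.16 ± 0.08 (wild-type at 30 °C, 4.51 times by means), and the depots never overlapped. Bckdha was higher by 0.26 to 1.43 and Dbt by 0.62 to 1.06. Bckdha overlapped between depots in Ucp1-KO mice at 30 °C, where the value of 0.26 fell to 0.02 with quantile normalization and did not pass. Bckdhb was higher in iBAT in 5 of 6, by 0.30 to 0.86, and did not pass in wild-type at 30 °C (0.26 ± 0.14, limma, adjusted p = 0.0651), where it passed with median-ratio scaling (0.77) and quantile normalization (0.34). Its value of 0.30 in wild-type at 20 °C did not pass with only the groups compared (adjusted p = 0.1235). Bcat2 was lower in iBAT by -0.67 to -1.39 in all 6. Ivd was lower in iBAT in 5 of 6 comparisons, by -0.53 to -0.93, and at 20 °C in wild-type it did not pass (-0.02 ± 0.10, limma, adjusted p = 0.843), with 79.8 to 108 RPKM in iBAT and 78.3 to 113 in iWAT; with median-ratio scaling it was higher there (0.54) and did not pass in wild-type at 30 °C (-0.20) or on high fat diet (-0.03). Mccc2 was higher in wild-type iBAT at 20 °C (0.41) but lower at 30 °C (-0.24) and on high fat diet (-0.33). Under median-ratio scaling those last 2 values were 0.26 and 0.16. With median-ratio scaling 44.6% to 48.3% of all calls were higher in iBAT, against 19.8% to 42.4% here. If the libraries of both depots come from the same animals, the test could not use it.

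The temperature effect itself differed between the depots for 4 of the 10 genes in wild-type (16.8% of all genes, 5.07% higher and 11.7% lower in iBAT) and for 4 in Ucp1-KO (25.5%, 6.7% and 18.8%). In wild-type it was larger in iBAT for Ivd (0.69 ± 0.14, limma, adjusted p = 9.95e-05), Mccc1 (0.52) and Mccc2 (0.65) and smaller for Dld (-0.46). Ppm1k was larger in wild-type iBAT as well on its RefSeq row (0.58, limma, adjusted p = 0.000573) and with summed transcript rows (0.67). Either setting gave 5 genes. Without the filter on low values Mccc1 did not pass in wild-type (limma, adjusted p = 0.0567). In Ucp1-KO it was larger in iBAT for Dbt (0.44), Bckdk (0.59), Mccc1 (0.60) and Mccc2 (0.80). Mccc1 passed in neither genotype without the 17 libraries. The share of calls that were higher moved from 30.2% to 41.1% in wild-type and from 26.3% to 52.3% in Ucp1-KO with median-ratio scaling.

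Ratios within a library remove differences in depth and total yield, and are given as a description. Their level depends on the transcript row that represents each gene. The ratio of Bckdha to Bckdhb, the alpha and beta subunits that pair in E1, was 3.73 to 5.77 (median 4.76) in wild-type iBAT at 20 °C, with a median of 3.09 at 30 °C. In Ucp1-KO iBAT it was 2.21 to 3.95 at 20 °C, 1.21 to 1.39 at 30 °C and 0.784 to 1.59 on high fat diet. At 30 °C every Ucp1-KO iBAT library was below every wild-type one, and in 5 of 8 Ucp1-KO libraries on high fat diet the ratio was below 1, with a median of 0.905. The rows used had medians of 95.7 RPKM (Bckdha) and 109 (Bckdhb) in that high fat group. On the RefSeq rows the medians were 89.8 and 79.0, so that a ratio below 1 depends on the row. In iWAT at 20 °C the order was the other way, with 2.86 to 3.53 in Ucp1-KO and 1.63 to 2.90 in wild-type.

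The ratio of the kinase Bckdk to the phosphatase Ppm1k was 13.6 to 29.3 (median 15.6) in Ucp1-KO iBAT at 20 °C and 4.45 to 15.5 (median 7.78) in wild-type. Its group medians ran from 7.09 to 15.6 in iBAT and from 3.68 to 8.13 in iWAT. The highest median in each tissue was that of Ucp1-KO mice at 20 °C. The ratio of Bcat2 to Bckdha was below 1 in every iBAT library, with 0.116 to 0.162 in Ucp1-KO at 20 °C and 0.450 to 0.962 in Ucp1-KO at 30 °C. In iWAT its medians ran from 0.465 (Ucp1-KO at 20 °C) to 1.75 (wild-type at 30 °C). Mccc1 over Mccc2, subunits of the same carboxylase, kept group medians between 1.27 and 2.08.

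**Figure D4:**
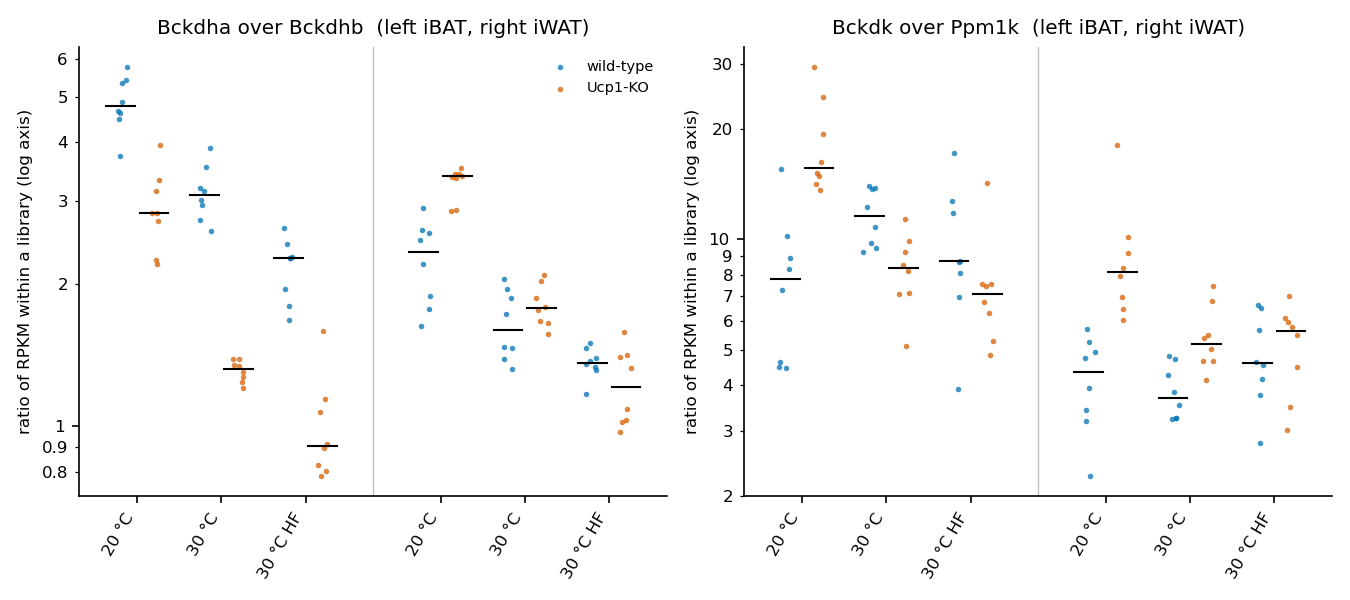
Ratio of RPKM within a library (log axis) for Bckdha over Bckdhb (left panel) and Bckdk over Ppm1k (right panel), by condition, with iBAT left and iWAT right of the grey line; points are libraries, 8 per group, blue wild-type and orange Ucp1-KO, and black bars are medians. In iBAT the ratio of the E1 subunits, on the transcript rows used, falls from a median of 4.76 (wild-type, 20 °C) to 0.905 (Ucp1-KO, high fat diet).

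The valine and isoleucine arms, represented by Acad8, Acadsb, Echs1, Hibch, Hibadh, Aldh6a1, Hsd17b10 and Acat1, followed the leucine arm in wild-type iBAT. All 8 rose at 20 °C, with a median difference of 0.42, where 11.6% of all genes were higher and 33% lower. Hibch, the hydrolase of the valine arm, lay at 115 to 149 RPKM at 20 °C and 73.3 to 94.3 at 30 °C (0.60 ± 0.08). In Ucp1-KO iBAT 6 of the 8 rose, without Aldh6a1 (-0.07) and Hsd17b10 (-0.20), where 13.9% of all genes were higher and 59.5% lower. Between genotypes 5 of the 8 were lower in Ucp1-KO at 20 °C and 7 at 30 °C, with none higher. Over all genes 13.1% were lower and 24.7% higher at 20 °C, and 10.5% and 54.2% at 30 °C. Acad8, the isobutyryl-CoA dehydrogenase, lay at 22.1 to 27.4 RPKM in Ucp1-KO and 28.6 to 32.3 in wild-type at 20 °C (-0.32).

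From propionyl-CoA to succinyl-CoA, the route that isoleucine and valine share, 5 of 6 genes rose at 20 °C in wild-type iBAT and all 6 (Pcca, Pccb, Mcee, Mut, Mmaa and Mmab) in Ucp1-KO iBAT. Of all genes 11.6% and 13.9% were higher in these comparisons. Pcca, the alpha subunit of propionyl-CoA carboxylase, lay at 86.9 to 109 RPKM at 20 °C and 43.3 to 54.6 at 30 °C in wild-type (0.95 ± 0.08). In Ucp1-KO it lay at 91.6 to 106 and 29.5 to 43.8 RPKM (1.49 ± 0.08). In iWAT 4 of the 6 rose with cold in wild-type and 6 in Ucp1-KO, and none fell, where 7.25% and 9.02% of all genes were higher. Of the end of the leucine arm, Auh rose at 20 °C in iBAT of both genotypes (0.25 and 0.99).

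Of 6 genes of transport and cytosolic transamination, 3 were higher and 1 (Slc43a1) lower in Ucp1-KO iBAT at 20 °C, and 4 were higher and none lower at 30 °C on each diet. Over all genes 24.7% were higher and 13.1% lower at 20 °C, and 54.2% and 52.8% were higher at 30 °C on control and high fat diet. Slc7a5 and Slc3a2, the light and heavy chains of the leucine exchanger, were higher in Ucp1-KO iBAT in every condition, as was the cytosolic transaminase Bcat1. Slc3a2 lay at 122 to 237 RPKM in Ucp1-KO and 50.2 to 77.5 in wild-type at 20 °C (1.46 ± 0.09, limma, adjusted p = 3.85e-17). Slc7a5 lay at 1.92 to 4.64 RPKM against 0.0825 to 0.307 (1.79 ± 0.13), a low level in wild-type. Bcat1 lay at 0.449 to 2.94 RPKM against 0.144 to 0.6, with overlap (1.05 ± 0.15). In iWAT Bcat1 rose on high fat diet in wild-type (1.61) and Ucp1-KO (1.43), in the comparisons where Bcat2 fell. Slc25a44, the mitochondrial carrier of branched-chain amino acids, fell slightly with cold in wild-type iBAT (-0.19) and rose in iWAT of both genotypes (0.28 and 0.41).

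Klf15, a transcription factor known to drive Bcat2 and other genes of this pathway, lay at 33.7 to 53.2 RPKM in wild-type iBAT at 20 °C and 17.4 to 26.6 at 30 °C, a rise of 0.90 ± 0.21 (limma, adjusted p = 0.000548). In Ucp1-KO iBAT it lay at 10.2 to 19.7 and 13.4 to 29.0 RPKM and did not pass (-0.33 ± 0.21). The genotypes did not overlap at 20 °C (-1.47 ± 0.21), and the temperature effect differed between them (-1.23 ± 0.30, adjusted p = 0.00069). In iWAT at 20 °C Klf15 was lower in Ucp1-KO as well (-0.86 ± 0.20). Bcat2 and Ppm1k were lower in Ucp1-KO at 20 °C in both depots too. In iWAT, though, Bcat2 did not pass with median-ratio scaling (-0.23), nor Ppm1k with quantile normalization (-0.35). Other genes of the 10 were higher in Ucp1-KO at 20 °C: Bckdhb, Dbt and Dld in iBAT, and Bckdha, Dbt, Dld and Bckdk in iWAT. The part of Klf15 in any of these differences was not tested.

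**Figure D5:**
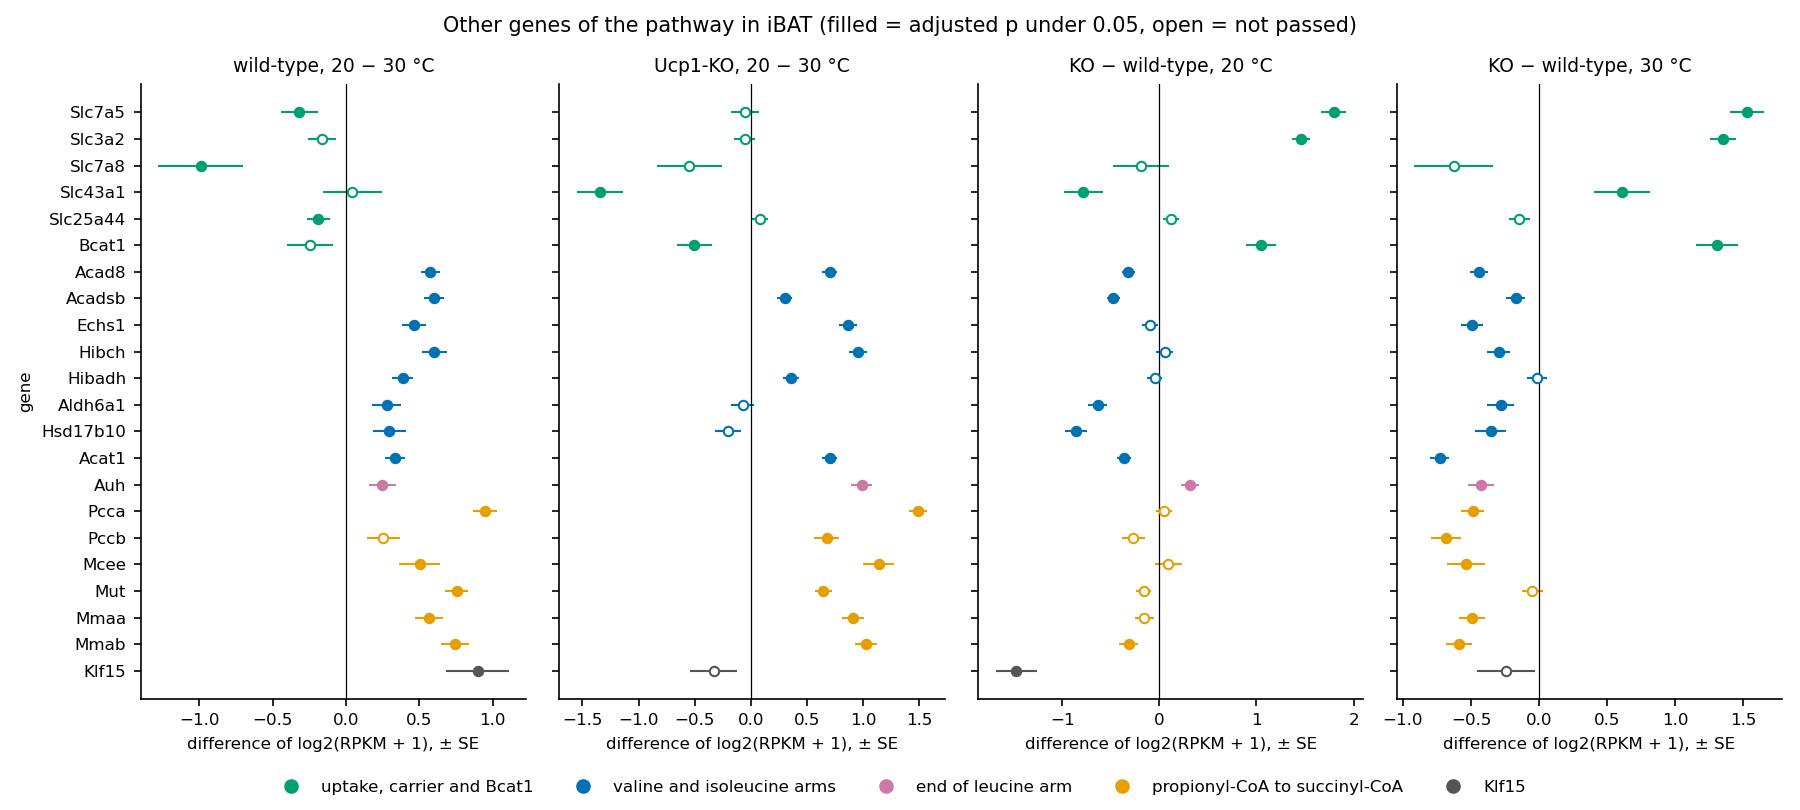
Difference of log2(RPKM + 1) (x axis, ± SE) in iBAT for the other genes of the pathway (y axis), in 4 comparisons; colours mark the groups of genes, filled points passed the test (adjusted p under 0.05, limma) and open points did not. Slc7a5, Slc3a2 and Bcat1 are higher in Ucp1-KO at both temperatures, and Klf15 stands at 0.90 in wild-type and -0.33 in Ucp1-KO for temperature.

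The general oxidative genes of the mitochondrion give a scale for these changes. Of 14 genes of the citrate cycle, 7 rose at 20 °C in wild-type iBAT (median difference 0.20) and 14 in Ucp1-KO iBAT (0.75), and of 16 nuclear genes of oxidative phosphorylation 4 and 15 rose. Of all genes 11.6% and 13.9% were higher in these comparisons. At 20 °C, 4 citrate cycle genes were higher and 1 lower in Ucp1-KO iBAT, and 1 of the 16 was higher, while Ivd, Bcat2, Ppm1k, Mccc1 and Mccc2 were lower. Of all genes 24.7% were higher and 13.1% lower. At 30 °C, 11 of the citrate cycle genes and 14 of the 16 were lower in Ucp1-KO iBAT and none higher. There 10.5% of all genes were lower and 54.2% higher. In Ucp1-KO iWAT at 20 °C, 13 of 14 and 16 of 16 were higher, with medians of 0.76 and 0.73, where 9.85% of all genes were higher and 55% lower. Of the 14 genes of the related dehydrogenase complexes that use Dld, with their kinases and phosphatases, 9 were higher there, among them Dlst (0.87) and Dlat (1.10), and Pdp1 and Gldc were lower. These lists were counted without median-ratio scaling. That scaling moved the share of higher calls among all genes from 83.7% to 51.9% between genotypes in iBAT at 30 °C. In iWAT at 20 °C it moved the share from 15.2% to 54.8%.

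Across the 12 group means the 10 genes did not move as a block. Pearson's r, given as a description over 12 means that share libraries and 2 tissues, was 0.97 between Bckdha and Bckdk, 0.89 between Bckdha and Dld and 0.86 between Ppm1k and Ivd. It was -0.79 between Bcat2 and Dbt, -0.77 between Bcat2 and Dld and -0.80 between Dbt and Ivd. Among 8987 other genes with a mean of at least 5 RPKM, those most like the mean profile of the 10 were Cox20 (r = 0.89), Grcc10 (0.88), Gnpat (0.88), Fam120aos (0.88), Tmem223 (0.88) and Hibch (0.87).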

How the data were processed

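Total RNA of iBAT and iWAT was made into stranded mRNA libraries per the labels' protocols, and CASAVA and bcl2fastq are named in the submitters' processing notes. The authors deposited RPKM values for 168326 transcript rows in 96 libraries; the aligner is not given in the sources used here, nor is the genome build. Rows without an Entrez number (13.8%) were left out. Each symbol was represented by the row of highest mean. Read depth was recovered from transcript lengths: 94.9% to 95.7% of values up to 20 reads came out whole within 0.05 reads.

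Tests were limma-trend (limma 3.58.1, R 4.3.3) on log2(RPKM + 1), for genes of at least 0.5 RPKM in at least 8 libraries. The 48 libraries of a tissue shared a fit of 6 group means, and comparisons of depots used all 96. P-values were adjusted by Benjamini-Hochberg within each of 26 comparisons, with a threshold of 0.05. On simulated data for temperature in wild-type iBAT (14807 genes), 92.5% of 67 genes changed by 1.5-fold were recovered. In wild-type iWAT (15897 genes) 88.1% of 67 were recovered. False calls were 6.8% in iBAT and 5% in iWAT, and were not split by size of change. Only 66 or 67 genes per size were changed in the simulation, whereas 44.6% of all genes were called in the real iBAT comparison. The simulation therefore cannot give the error rate of that comparison.

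The genes named were the 10, up to 4 of smallest p per list (all of lists of up to 6), Ucp1 and the 6 most alike. Members and lists were chosen with earlier results of these data known. A gene of the lists is not reported here. Alternatives were a pseudocount of 0.1, no filter on low values, median-ratio scaling, quantile normalization, summed transcript rows and only the groups compared. The RefSeq row, and leaving out 17 libraries (summed muscle markers over 2000 RPKM, or a median r with their own group under 0.95), were added after seeing the data.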

Additional observations from a re-analysis of the deposited data

Results flagged for a closer look

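In iBAT the temperature effect differed between genotypes for 8 of the 10 genes by a test of the interaction (limma), which 52.4% of all genes passed. The difference of effects, Ucp1-KO minus wild-type, was -1.27 for Bcat2, 0.39 for Bckdha, 0.37 for Dbt, 0.51 for Dld and 0.51 for Bckdk. It was -1.04 for Ppm1k, -0.81 for Ivd and -0.56 for Mccc1. Mccc1 did not pass on the RefSeq row (-0.20, adjusted p = 0.079) or with median-ratio scaling (-0.31, adjusted p = 0.155), nor Bckdha without the 17 libraries (0.31, adjusted p = 0.0812). In iWAT, where 13.3% of all genes passed, it was -0.89 for Bcat2 and -0.64 for Mccc1. There Bcat2 did not pass with median-ratio scaling (-0.64), nor Mccc1 with either scaling (-0.39 and -0.49), on the RefSeq row (-0.30) or without the 17 libraries.

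The temperature effect differed between the depots, iBAT minus iWAT, by -0.46 for Dld, 0.69 for Ivd, 0.52 for Mccc1 and 0.65 for Mccc2 in wild-type mice. In Ucp1-KO mice it differed by 0.44 for Dbt, 0.59 for Bckdk, 0.60 for Mccc1 and 0.80 for Mccc2. Of all genes 16.8% passed in wild-type and 25.5% in Ucp1-KO, and Mccc1 passed in neither genotype without the 17 libraries. In wild-type, Ppm1k passed as well on its RefSeq row (0.58) and with summed transcript rows (0.67).

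Of 120 pairs of a gene and a group, 5 held a library far from the other 7, and chance gives about 1 in 20. In wild-type iWAT on high fat diet, library 87 was highest for Bckdha (105 RPKM) and for Mccc1 (73.1 RPKM), and library 88 was highest for Ppm1k (9.37 RPKM). Dld was lowest in library 6 of wild-type iBAT at 20 °C (315 RPKM). Ivd was highest in library 32 of Ucp1-KO iBAT at 30 °C (69.9 RPKM), a library with 8533 RPKM of summed skeletal muscle markers, whose part was not tested.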

How the results depend on the processing

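No paired analysis was possible because the groups share no replicate numbers in the labels. The count of genes called in Ucp1-KO iBAT on high fat diet, 0, became 2 with quantile normalization and 1 with summed transcript rows or the RefSeq row. The count of 4 between genotypes in iWAT at 30 °C became 8 with only the groups compared. In wild-type iWAT, the count of 1 for diet became 2 with summed rows or the RefSeq row, where Ppm1k fell too, and 0 without the 17 libraries. The count of 2 for the genotype difference in the temperature effect of iWAT became 1 with either scaling, summed rows, the RefSeq row or without the 17 libraries. With median-ratio scaling that gene was Bckdha, in the opposite direction (0.56), and in the other settings it was Bcat2. For the diet effect in iWAT, 0 became 1 with only the groups compared.

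With median-ratio scaling these log2 differences changed sign: Ivd for temperature in Ucp1-KO iBAT (0.40) and iWAT (0.066), Mccc2 for temperature in Ucp1-KO iWAT (0.11), and Mccc2 between genotypes in iWAT at 20 °C (0.36). So did Dbt between genotypes in iBAT at 30 °C (-0.22) and on high fat diet (-0.040). Between depots in wild-type, Ivd at 20 °C (0.54), Mccc1 at 30 °C (0.34), and Mccc2 at 30 °C (0.26) and on high fat diet (0.16) changed sign. With quantile normalization Ppm1k did so between depots in wild-type at 20 °C (0.49) and on high fat diet (0.40). The cause was not tested. A further 82 differences, over all alternatives, changed sign without passing in either fit and are not counted here.

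Of 260 differences per alternative, 259 kept direction and side of the threshold with a pseudocount of 0.1, 256 without the filter, 233 with quantile normalization and 223 with median-ratio scaling. With summed rows and with the RefSeq row 246 did each, with only the groups compared 245, and without the 17 libraries 248. Over all genes, 9598 calls for temperature in Ucp1-KO iWAT became 6034 after median-ratio scaling and 5813 after quantile normalization, and 2110 calls for the genotype difference in that effect became 1380 and 870, or 552 without the 17 libraries. With quantile normalization 45 calls between genotypes in iWAT on high fat diet became 71 and 212 for the genotype difference in the iWAT diet effect became 346. With only the groups compared these became 13 and 373, and 2424 calls for diet in Ucp1-KO iBAT became 1442. Without the 17 libraries that count was 1298, and 970 became 550 for the genotype difference in the iBAT diet effect, 3116 became 1518 for temperature in wild-type iWAT, 3781 became 2434 between genotypes in iWAT at 30 °C, 2150 became 986 for diet in wild-type iWAT and 212 became 60 for its difference between genotypes. Depth limits Ppm1k most, at 2.13 to 13.48 RPKM.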
